A study of Arabidopsis thaliana with 3 samples.

Results

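GIGANTEA and the genes of the evening complex were located among the chromatin regions bound by LDL1:GFP in Arabidopsis thaliana seedlings. The 5 genes, GI, ELF3, ELF4, LUX (listed as PCL1 in the gene table) and BOA, were chosen by name, and they are 5 of 27444 nuclear protein-coding genes. Every ChIP region that reached the gene body or 5 kb on either side of it was listed, which gave 6 of the 5928 regions in the set. LDL1 belongs to the family of histone demethylases named after LSD1 of animals. Seedlings of ecotype Col-0 that carried LDL1 fused to GFP under the LDL1 promoter were grown in long days and collected at 14 days. Chromatin precipitated with an anti-GFP antibody gave 2 ChIP libraries, each from several pooled immunoprecipitations, and 1 input library came from the same line. The labels give no time of day for the harvest, and no host genotype beyond the ecotype, and no untagged line was analysed here.

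The circadian clock of Arabidopsis is largely a set of transcriptional repressors that follow each other through the day and night. ELF3, ELF4 and LUX form the evening complex, a night-time repressor in which LUX binds DNA, ELF3 is the scaffold and ELF4 a small cofactor. BOA is the closest relative of LUX and can take its place in the complex. GI is a large evening-phased protein that stabilises the F-box photoreceptor ZTL and, with FKF1, links the clock to CONSTANS and flowering. The morning MYB factors CCA1 and LHY repress several of these evening genes.

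The ChIP data analysed here are a single list of regions that is not separated by replicate, and a region carries a start and an end but no score, fold or count. How deeply the ChIP libraries were sequenced is thus unknown, no value has a replicate error, and no difference could be tested. The counts below are descriptions set beside the same count over all protein-coding genes. Distances are the bases lying between a region and a gene, on the build TAIR10. The gene table gives no strand, exon or UTR, so the 2 ends of a gene are called the lower-coordinate and the higher-coordinate end and no region was placed relative to a transcription start. All 5 genes lie in the inner chromosome arms, between 2.96 and 8.64 Mb from a chromosome end and in 1 Mb bins with 244 to 285 protein-coding genes. The inner arms here take in genes from bins with at least 150 such genes, if the gene's midpoint lies farther than 1 Mb from an end. They hold 22974 protein-coding genes, and their shares are given as a second background, chosen after the data had been seen.

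Regions lay within 5 kb of 4 of the 5 genes, and 1 gene, ELF3, had none. ELF4 and BOA had 2 regions each, and GI and LUX had 1 each. Over all nuclear protein-coding genes 25.4% had a region in the body or within 5 kb, and in the inner arms 20.1% did. Within 1 kb a region was found at 3 of the 5 genes, GI, ELF4 and BOA, beside 12.2% of all protein-coding genes and 8.77% of those in the inner arms. The body itself was overlapped in ELF4 and BOA, beside 7.68% of all genes and 5.18% of inner-arm genes. The presence of 2 or more regions within 5 kb, seen at ELF4 and BOA, occurred at 6.74% of all genes and 3.17% of inner-arm genes. With 5 genes, each gene moves these shares by a large step, so they describe the genes one by one rather than a family rate.

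**Figure D1:**
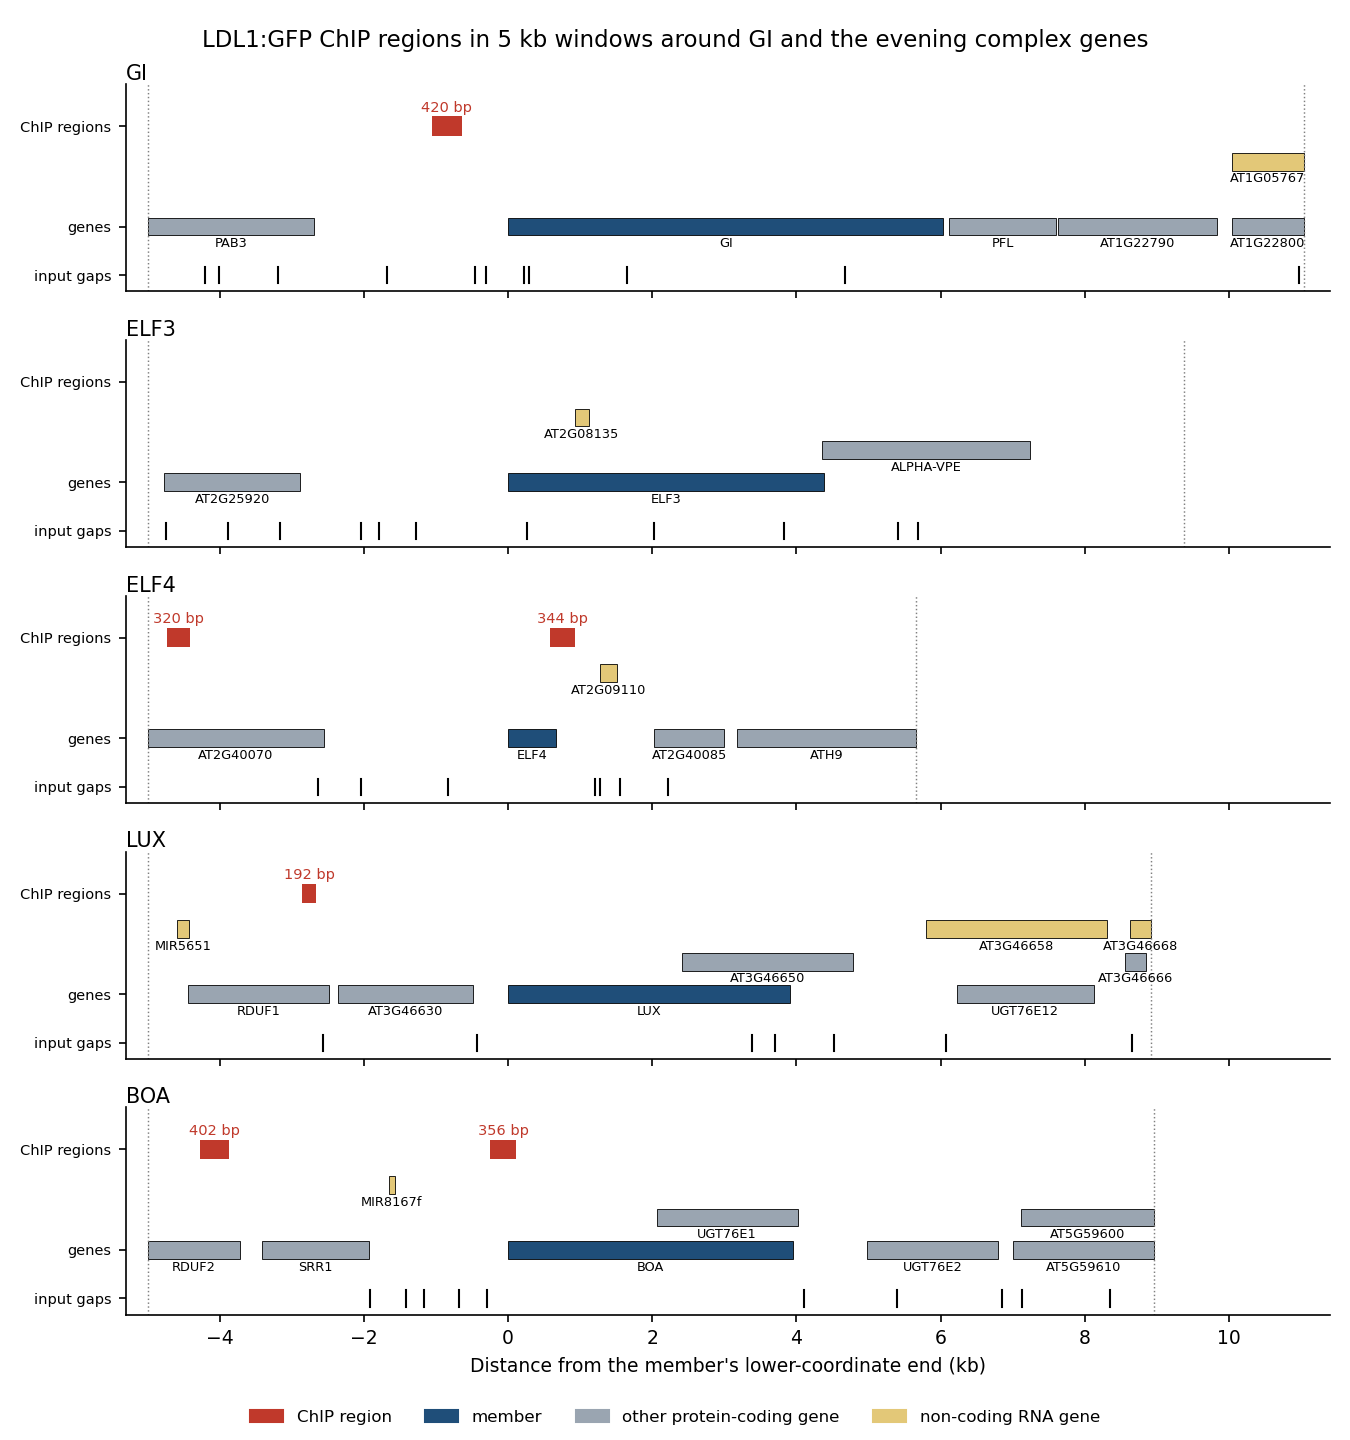
Map of the 5 genes with 5 kb on either side (dotted lines), in kb from the lower-coordinate end of each gene. Red bars are ChIP regions with their widths, blue bars GI, ELF3, ELF4, LUX or BOA, grey bars other protein-coding genes, yellow bars non-coding RNA genes, and black ticks gaps between input intervals; the regions touch an end of ELF4 and BOA, stand 640 bp from GI and 2667 bp from LUX, and are absent around ELF3.

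GI, the link between clock and flowering, occupies chr1:8061751-8067790 and had 1 region, at chr1:8060691-8061110. The region was 420 bp wide, the widest of the 6, and 76.0% of all ChIP regions were narrower. It lay between genes and overlapped none of them. On its higher side the nearest protein-coding gene was GI, 640 bp away. On its lower side it was PAB3, a poly(A)-binding protein gene, 1630 bp away. The intergenic stretch between PAB3 and GI is 2690 bp long, and the region stood on the GI side of its middle. At the other end of GI, the ribosomal protein gene PFL begins after 73 bp, and no region lay there. The next region on the chromosome lay 53707 bp from the GI region. The spacing between regions was not counted over the whole set. A region as near as 640 bp was found at 10.9% of all protein-coding genes and 7.69% of those in the inner arms.

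ELF4, the small cofactor, is the shortest of the 5 genes at 660 bp (chr2:16734294-16734953). A region of 344 bp, wider than 63.3% of all regions, ran across its higher-coordinate end at chr2:16734881-16735224. Of this region 73 bp, or 21.2%, lay inside ELF4, where it took up 11.1% of the gene. Its midpoint lay 99.5 bp outside the gene. The next protein-coding gene beyond it, AT2G40085, was 1092 bp away, so ELF4 was the only protein-coding gene within 1 kb. The second region, chr2:16729554-16729873, was 320 bp wide and lay 4420 bp from ELF4. It sat wholly inside the neighbour AT2G40070, also named BPP1, whose body is 3544 bp long. It began 1361 bp from the lower-coordinate end of that gene and ended 1863 bp from the other end. This second region was therefore in the middle part of a neighbouring gene and in ELF4's window only because the window is 5 kb wide.

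LUX, the DNA-binding member, occupies chr3:17183042-17186959. No region reached its body or the 1 kb around it. The only region in its window, chr3:17180183-17180374, was 2667 bp from the gene. At 192 bp it was the narrowest of the 6, and only 4.15% of all regions were narrower. It lay wholly inside RDUF1, a gene for a RING-type ubiquitin ligase. Another gene, AT3G46630, stood between RDUF1 and LUX and was 303 bp from the region. A region as near as this one was found at 18.0% of all protein-coding genes and 13.5% of inner-arm genes. A region within 5 kb and none within 1 kb, as at LUX, was the case at 13.2% of all genes and 11.3% of inner-arm genes. LUX overlaps AT3G46650 over 1507 bp at its higher-coordinate end, and neither gene carried a region there.

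BOA, the relative of LUX, occupies chr5:24003888-24007844 and had a region across its lower-coordinate end, at chr5:24003639-24003994. This region was 356 bp wide, and 66.3% of all regions were narrower. Of its length 107 bp, or 30.1%, lay inside BOA, where it took up 2.7% of the gene, and its midpoint lay 71.5 bp outside. On the lower side the nearest protein-coding gene was SRR1, a gene known for its part in red-light signalling and the clock, 1681 bp away. BOA overlaps the glucosyltransferase gene UGT76E1 over 1896 bp at its higher-coordinate end, 1954 bp from the region. The second region, chr5:23999616-24000017, was 402 bp wide and lay 3870 bp from BOA, wholly inside RDUF2, the second RDUF gene. It was 458 bp from SRR1, so SRR1 had a region within 1 kb although its body was free of one.

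ELF3, the scaffold of the complex, occupies chr2:11058944-11063324 and had no region in its body or within 5 kb. Its nearest region lay 60108 bp away, and the next ones 69254 and 71008 bp away. The median distance to the nearest region was 16573 bp over all protein-coding genes and 20494 bp in the inner arms. In the inner arms 18.9% of genes had their nearest region farther off than ELF3. ELF3 carries an annotated antisense RNA, AT2G08135, inside its body and overlaps ALPHA-VPE, a vacuolar protease gene, over 24 bp, and these were free of regions too.

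**Figure D2:**
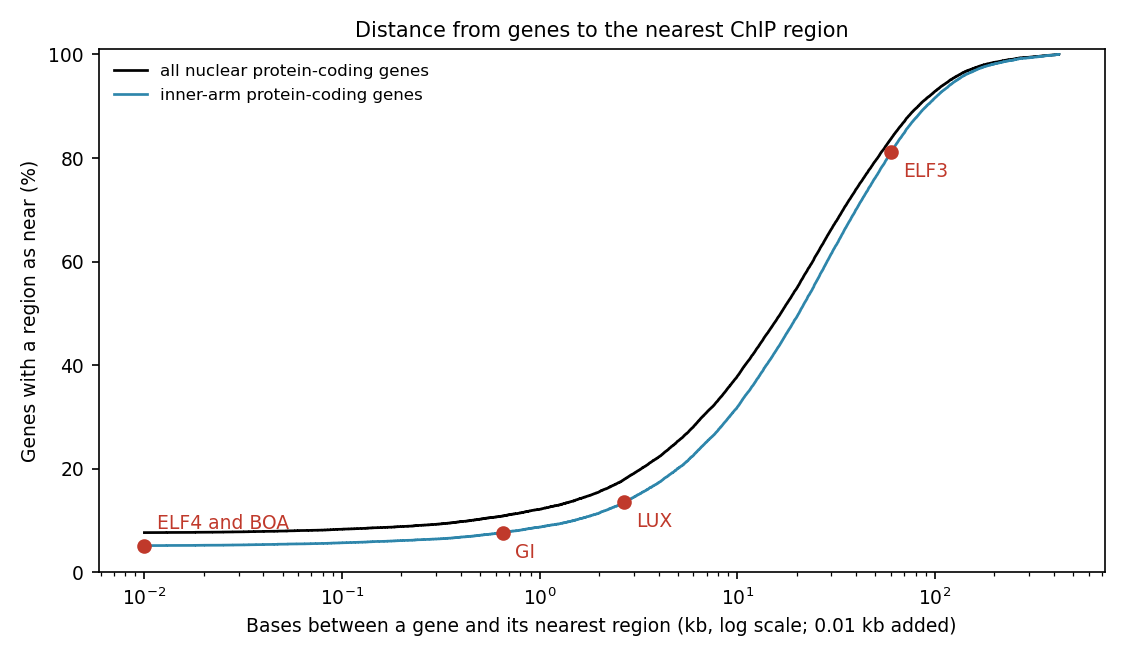
Cumulative share of genes (vertical axis, %) whose nearest ChIP region is no farther than the distance on the horizontal axis (kb, log scale, 0.01 kb added so that 0 can be drawn), for all nuclear protein-coding genes (black) and those of the inner arms (blue). Red points place ELF4 and BOA at 0 bp, GI at 640 bp, LUX at 2667 bp and ELF3 at 60108 bp on the inner-arm line.

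In order of distance the genes ran from ELF4 and BOA, which were overlapped, through GI and LUX to ELF3. There is no replicate spread by which to say whether neighbours in this order differ. ELF4 and BOA had in common that the region crossed one end of the gene and had its midpoint outside. Over all genes, 2108 were overlapped by a region, and in 506 of them (24%) no region had its midpoint inside. A midpoint inside the body was found in none of these 5, beside 5.84% of all protein-coding genes and 4.07% of inner-arm genes. GI, ELF4 and BOA were each the protein-coding gene nearest to their closest region, which overlapped no other gene. The other 3 of the 6 regions were wholly inside another protein-coding gene, AT2G40070, RDUF1 or RDUF2. How all ChIP regions divide in this way was not counted, so whether such a division is usual is not known. Besides the 5 genes, the windows touch 20 other protein-coding genes, and those 3 were the ones overlapped. These 3 of 20 stand beside an overlapped share of 7.68% over all protein-coding genes and 5.18% over inner-arm genes. None of the 6 regions overlapped a tRNA, snRNA or rRNA gene, and only 102 of all 5928 regions did.

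The 6 regions were of ordinary width. They ranged from 192 to 420 bp, with a median of 350 bp, beside a median of 300 bp and quartiles of 241 and 411 bp over all 5928 regions. Of the 6, 5 were wider than the overall median and 4 lay between the quartiles. Both exceptions to the quartiles were single regions, that of GI just above the upper one and that of LUX below the lower one. The share of the window that lay in regions was 6.23% at ELF4, 5.43% at BOA, 2.62% at GI and 1.38% at LUX, where the windows differ in length with the gene.

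**Figure D3:**
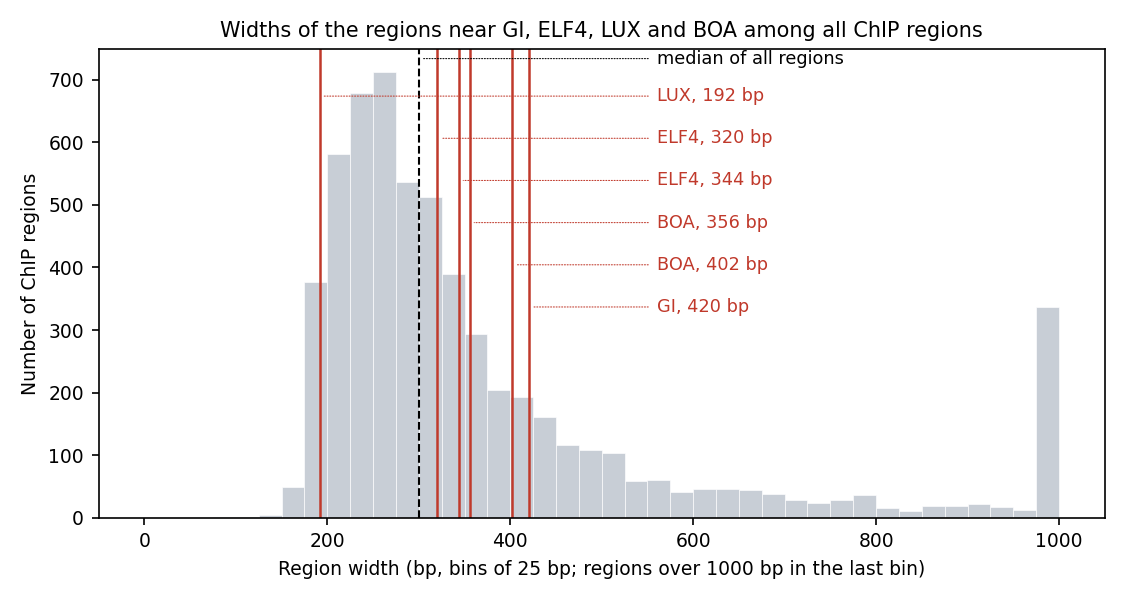
Histogram of the widths of all ChIP regions (grey, number of regions in bins of 25 bp, those over 1000 bp in the last bin), with the 6 regions near GI, ELF4, LUX and BOA as red lines and the median of all regions, 300 bp, as a dashed line. The LUX region of 192 bp lies at the narrow edge of the distribution and the other 5, from 320 to 420 bp, to the right of the median.

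LUX and BOA sit in neighbourhoods with related genes, and the regions there fell at like places. Each of the 2 genes has an RDUF gene on its lower-coordinate side with 1 protein-coding gene in between (AT3G46630 for LUX, SRR1 for BOA), and 2 glucosyltransferase genes named UGT76E over or beyond its higher-coordinate end. RDUF1 and RDUF2 are 1959 and 2003 bp long. The RDUF1 region ended 185 bp before the higher-coordinate end of its gene, and the RDUF2 region ended 149 bp before the same end of its gene. Counted from that end, the midpoints were at 280.5 and 349.5 bp, and all 192 bp of the RDUF1 region fell within the span of the RDUF2 region. None of these UGT76E genes had a region within 1 kb, beside 12.2% of all protein-coding genes and 8.77% of inner-arm genes. With so few genes this absence says little. The neighbourhoods differed at the clock genes themselves, since BOA had a region across its lower-coordinate end and LUX had none within 1 kb. This likeness was noticed after the map had been drawn. Whether reads could be exchanged between the related genes was not tested.

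**Figure D4:**
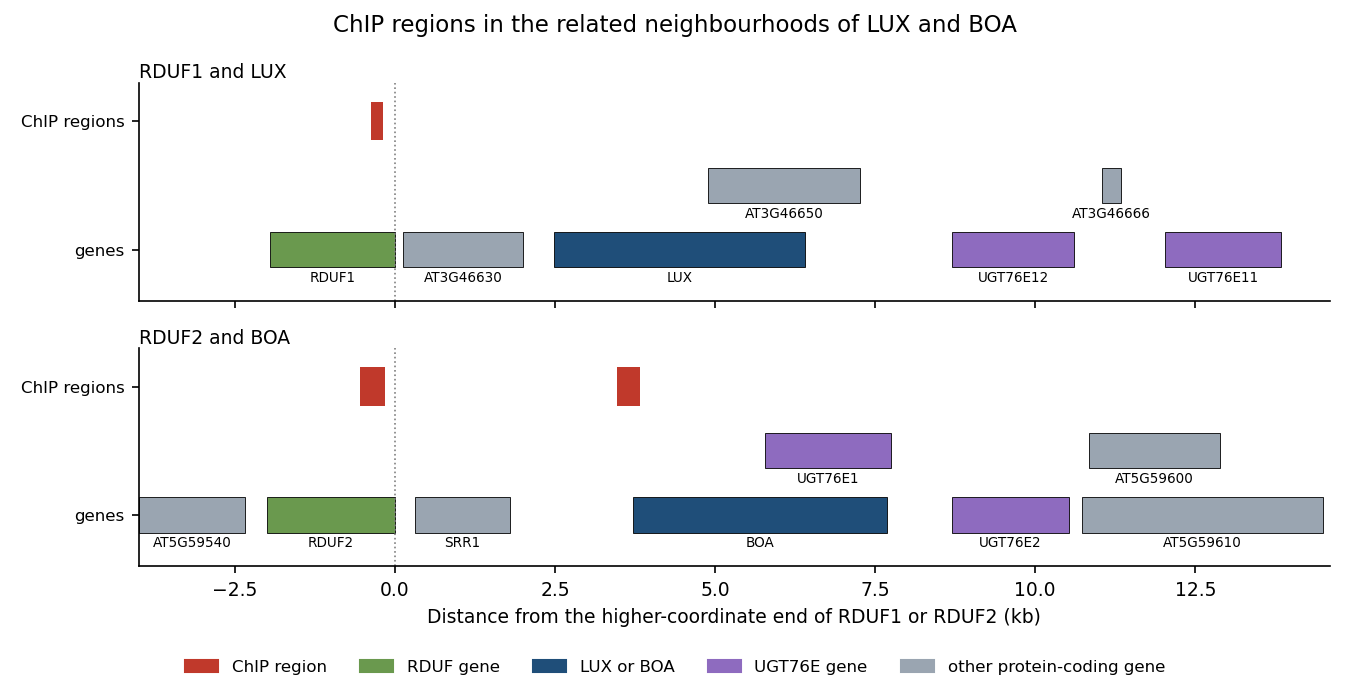
The LUX neighbourhood (top) and the BOA neighbourhood (bottom), lined up at the higher-coordinate end of RDUF1 and RDUF2 (dotted line, distance in kb). Red bars are ChIP regions, green bars RDUF genes, blue bars LUX or BOA, purple bars UGT76E genes and grey bars other protein-coding genes; both RDUF genes hold a region just before the dotted line, and only BOA has another at its own end.

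The wider surroundings differed between the 5 genes. Within 100 kb of the gene's middle, the midpoints of 8 regions were found at ELF4, 7 at LUX, 5 at BOA, 4 at ELF3 and 2 at GI. The median over inner-arm genes was 3, with quartiles of 2 and 5. ELF4 thus lay in a stretch with more regions than most, and 9.3% of inner-arm genes had at least as many. GI had a region close by in a stretch with 2 regions. In the inner arms 76.5% of genes had at least as many as GI, and 40.0% had as few or fewer. ELF3 had none nearby although its surroundings within 100 kb were not poor in regions.

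The input was present throughout these windows. The input intervals carry no depth, and what it took for sequence to enter an interval is not stated. Since the intervals were separate from each other and took in 98.5% of nuclear sequence, they were read here as stretches with aligned reads. They covered from 98.8% of the window at BOA to 99.6% at ELF4. At ELF3 they covered 99.2% of the window and 99.8% of the gene body, and no gap in the ELF3 window was longer than 24 bp. The longest gap in any of the 5 windows was 48 bp, at BOA. Each of the 6 regions was covered over its whole length by 1 input interval, as were 76.8% of all ChIP regions. Those intervals were 1213 bp long at GI, 2032 and 7728 bp at ELF4, 3055 bp at LUX, and 3752 and 4371 bp at BOA. The median over nuclear input intervals was 607 bp. Longer intervals are likelier to hold a whole region, so this is not a like comparison. The region at the end of BOA came closest to an input gap, at 41 bp.

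Other genes of the pathway were counted in the same way, in 5 lists. Of 50 symbols 7 were not matched in the gene table and 1 was a second name of a gene already listed, which left 42 genes. A region lay in the body or within 1 kb of 12 of the 42 genes (28.6%), beside 12.2% of all protein-coding genes. Of the 42, 35 lie in the inner arms, and 6 of these 35 had a region (17.1%, beside 8.77%). Of the 7 outside the inner arms 6 had one, beside 29.9% of all protein-coding genes outside the inner arms. The lists were chosen with earlier results on clock genes known, so the excess is no independent evidence.

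The list of relatives and physical partners of the evening complex had 14 symbols, of which 5 were not matched, which left 9 genes. Of these 9, 5 had a region within 1 kb (55.6%, beside 12.2% of all genes). In the inner arms this was so for 3 of 7 genes (42.9%, beside 8.77%). Outside them, where ELF4-L3 and BBX19 lie, it was so for 2 of 2, beside 29.9% of all protein-coding genes there. The ELF4 homologue ELF4-L4 had 2 regions over its body, the wider of 362 bp at chr1:5998568-5998929. ELF4-L3 lay 928 bp from a region of 318 bp, in a gene-poor bin. It had 5 regions within 5 kb, where 6.74% of all genes had at least 2. No region lay within 1 kb of ELF4-L1 or ELF4-L2. MYBC1, a MYB-like gene related to LUX, lay 285 bp from a region of 646 bp (chr2:17099017-17099662), wider than any of the 6 above. The red-light receptor gene PHYB, whose product binds ELF3, had 2 regions within 1 kb, and BBX19, whose product also binds ELF3, lay 618 bp from a region of 357 bp.

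Of 6 targets of the evening complex, 2 had a region within 1 kb (33.3%, beside 12.2% of all genes). PRR9 overlapped a 481 bp region, and PRR7 lay 116 bp from one of 492 bp that also covers a tRNA gene. Both lie in the outer 1 Mb of a chromosome, and outside the inner arms 29.9% of all protein-coding genes had a region within 1 kb. In the inner arms 0 of 4 targets had one, beside 8.77%. PIF4 and PIF5, the growth-promoting factors that the complex represses at night, had their nearest regions 30684 and 33576 bp away. Of 10 regulators of the 5 genes, CCA1, LHY, TOC1 and HY5 were overlapped, beside 7.68% of all genes. CCA1 and LHY lie 0.451 and 0.0356 Mb from a chromosome end, and in the inner arms 2 of 7 regulators, TOC1 and HY5, had a region within 1 kb, beside 8.77%. LHY had 5 regions within 5 kb, TOC1 had 4 and CCA1 had 2, where GI and LUX had 1 and ELF4 and BOA had 2. At least 2 regions within 5 kb occurred at 6.74% of all genes and 3.17% of inner-arm genes. LHY and CCA1 lie outside the inner arms and the other genes compared lie inside them, so these counts are not a like comparison. HY5, a light-signalling factor, had 1 region of 344 bp at chr5:3594900-3595243.

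None of the 11 genes in the list of GI partners and the photoperiod pathway had a region within 5 kb, beside 25.4% of all genes and 20.1% of those in the inner arms, where all 11 lie. With 11 genes this difference was not tested. Their nearest regions ranged from 6005 bp away at COP1 to 137730 bp at ZTL, with a median of 29745 bp. CO, which GI and FKF1 release from repression, was 8413 bp from a region, FKF1 30657 bp and FT 18809 bp. Among LDL1 and its partners, 1 of 6 genes had a region within 1 kb, LDL1 itself, whose sequence is also carried by the transgene. This share of 16.7% is near the 12.2% of all genes. The deacetylase genes HDA6 and HDA5 had their nearest regions 5670 and 84009 bp away. For the LDL1 relatives LDL2, LDL3 and FLD the distances were 10776, 9033 and 5525 bp.

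**Figure D5:**
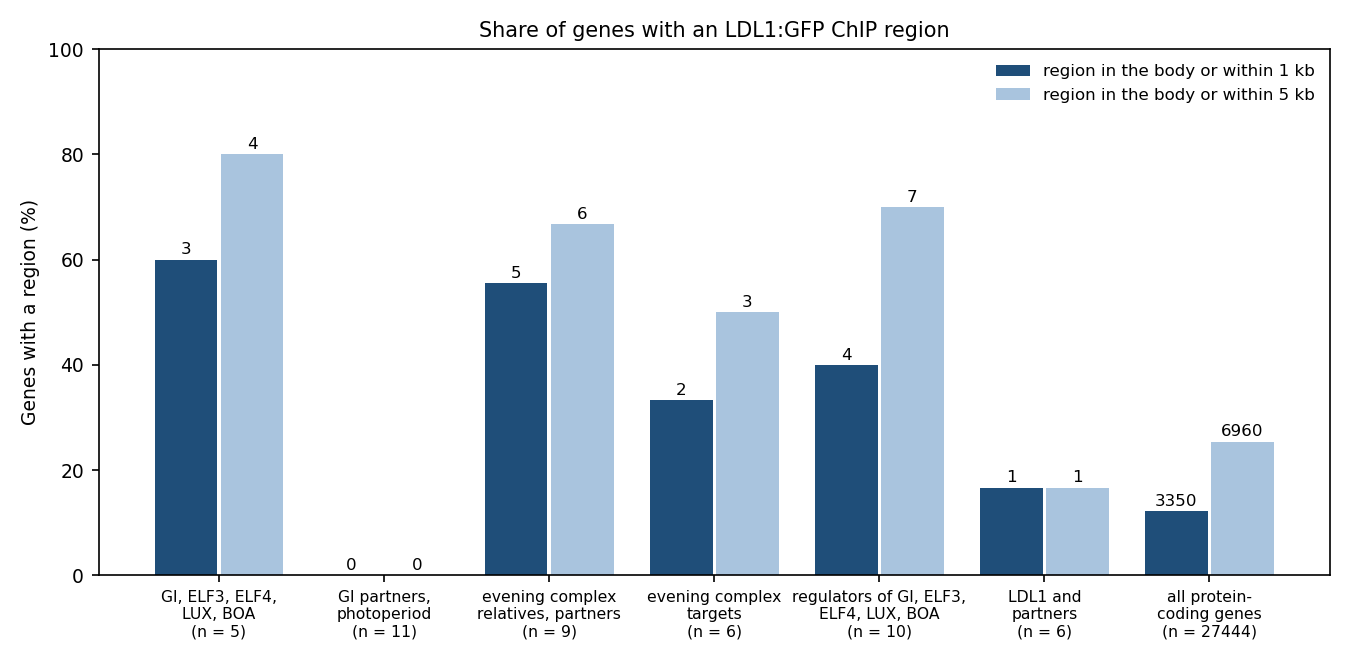
Share of genes (%) with a region in the body or within 1 kb (dark bars) or 5 kb (light bars) for the 5 genes, the 5 pathway lists and all nuclear protein-coding genes; the numbers above the bars are counts of genes. The 5 genes stand at 3 and 4, the GI partners at 0 and 0 of 11, and all protein-coding genes at 12.2% and 25.4%.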

How the data were processed

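Per the submitters' processing notes, Bowtie, SICER and the build TAIR10 were used, without version or role. The region threshold and the use of the 2 ChIP replicates are stated nowhere in the sources used here. The files deposited by the authors hold interval coordinates only, 1 set for the ChIP group and 1 for the input, and no other unit. Coordinates were turned to 1-based. Gene positions and names came from RefSeq's gene table of assembly TAIR10.1, which shares its nuclear chromosomes with TAIR10. A gene counted as holding a region from an overlap of 1 bp with its body, or with the body and 1 or 5 kb on either side. The genes, lists and tests were chosen with earlier results of these data known. The genes named are the 5 members, the neighbours of each region, and list genes with a region within 1 kb. PFL, ALPHA-VPE, AT2G08135, AT3G46650, PIF4, PIF5, COP1, ZTL, CO, FKF1, FT, HDA6, HDA5, LDL2, LDL3, FLD, ELF4-L1 and ELF4-L2 were added after their values were seen. No test was run, since there is 1 region set. The planned search for promoter motifs was not run, and sequence was not used here. Counting was tested on simulated data. Python 3.11.15, numpy 2.4.6, pandas 2.3.3 and matplotlib 3.10.9 were used.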

Additional observations from a re-analysis of the deposited data

How the results depend on the processing

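The 37 alternatives changed the windows, the regions counted, the overlap required and the input intervals used. Of these, 32 left a value within 1.5 times, or for the input share and median width unmoved. Several of the 32 could not move a value. Leaving out regions on tRNA, snRNA or rRNA genes took away none of the 6 regions. Requiring input intervals of at least 500 or 1000 bp took away no covering interval, the shortest being 1213 bp. On counts this small the limit is also loose, since 3 genes falling to 2 stayed within it. The other 5 of the 37 were as follows. With at least 200 bp of overlap, or with the region midpoint, 0 of the 5 genes were overlapped in the body in place of 2, because the regions at ELF4 and BOA reach only 73 and 107 bp into them. The regions counted fell to 3 in place of 6 when each region was given only to its nearest protein-coding gene, and also to 3 with 2 kb on either side. The median width was 356 bp for the regions within 1 kb. Among the 32, GI no longer counted with 500 bp on either side. The 4 genes with a region within 5 kb fell to 3, each time by the loss of LUX, under several settings. These were only regions at least as wide as the median, at least 200 bp of overlap, only the nearest protein-coding gene, and 2 kb on either side. No paired analysis was possible because the region set is not separated by replicate, and for the same reason no replicate could be left out. The unknown ChIP depth limits what the absence of a region at ELF3 or LUX can say.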
